A study of Mus musculus with 4 samples.

Results

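The histone acetyltransferases and deacetylases were taken as the probes whose gene symbol in the array's probe table is one of 32 listed genes, 14 acetyltransferases or coactivators (writers of acetylation) and 18 deacetylases (erasers). Of these, 28 genes had a probe, 42 probes in all, among 16593 genes with a symbol on the array. Kat6a, Crebbp and Taf1 of the writers and Sirt4 of the erasers had no probe under these symbols and are not described further. Mouse RNA was measured on 4 Illumina BeadChips, with a single array in the groups APNL+AuEMF, APNL, Primary neuron and Fibroblast. By its title, the series concerns direct conversion to dopamine neurons under an electromagnetic field. The labels name each group and say nothing of age, strain, source tissue or time in culture, nor what the abbreviations stand for. As the published field uses these letters, which the labels leave unstated, APNL would be fibroblasts given a set of transcription factor genes, and AuEMF gold nanoparticles under an electromagnetic field. No control for gene delivery, gold or field is among the 4 groups. With 1 array per group there is no replicate error, no difference below was tested, and precision is limited by how few arrays there are.

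Histone acetyltransferases move an acetyl group from acetyl-CoA onto lysines of histone tails, which loosens chromatin and gives bromodomain proteins a place to bind. Deacetylases take it off again, several of the zinc-dependent Hdac enzymes as subunits of corepressor complexes and the sirtuins by consuming NAD. In the nervous system Hdac1 and Hdac2 act in the REST and NuRD complexes that hold neuronal genes silent in other cells, class IIa enzymes shuttle between nucleus and cytoplasm with neuronal activity, and p300 and CBP serve as coactivators of activity-dependent transcription.

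On a detection p-value under 0.01 against the array's negative controls, the APNL+AuEMF array had 45.8% of its 25697 probes detected, APNL 42.9%, Primary neuron 47.8% and Fibroblast 41.4%. The labelled cell types were set against marker lists. The Primary neuron array detected 13 of 15 neuron markers, with Snap25 and Nefl below detection on all 4 arrays. There 11 of 13 compared neuron markers exceeded their fibroblast level by 2-fold or more, and 1 was lower by that much, at -2.41. The Primary neuron array also detected 13 of 14 fibroblast markers, at a summed linear level of 75887 against 150415 in fibroblasts. It detected 7 of 9 astrocyte markers, against 4 in fibroblasts, and 2 of 7 compared were higher by 2-fold or more and 0 lower. Of 5 compared oligodendrocyte lineage markers 1 was higher and 2 were lower by 2-fold or more. The Fibroblast array detected all of its own markers but Postn, and 11 of 14 skeletal muscle markers. The APNL+AuEMF array detected 11 of 13 microglia and macrophage markers, at a summed level of 30433 against 6846 in APNL and 7100 in fibroblasts, while Ptprc and Itgam were below detection on every array. The part of these cell-type differences in the results below was not tested. In such bulk RNA, fewer cells of a type and less RNA per cell cannot be told apart.

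Of the 28 genes with a probe, 24 were detected on at least 1 array and 22 on all 4. Of all 16593 genes, 9184 were detected on at least 1 array and 7512 on all 4. All of the 4 arrays detected the same number of erasers, 15 of 17. Writers were detected in 8 of 11 cases in APNL+AuEMF, 7 in APNL, 9 in primary neurons and 7 in fibroblasts. Over all genes, 8576 were detected in APNL+AuEMF, 8144 in APNL, 8728 in primary neurons and 7847 in fibroblasts. The arrays with more writers detected thus had more genes detected, and no writer-to-eraser difference is drawn from these counts. Hdac8, a class I deacetylase, Hdac9, a class IIa deacetylase, and the steroid receptor coactivators Ncoa2 and Ncoa3 were below detection on all 4 arrays. Hdac8 came nearest in primary neurons, where its detection p was 0.01. Values below are background-corrected, quantile-normalized log2 levels, and a level of one gene is not set against that of another, since probes differ in brightness.

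**Figure D1:**
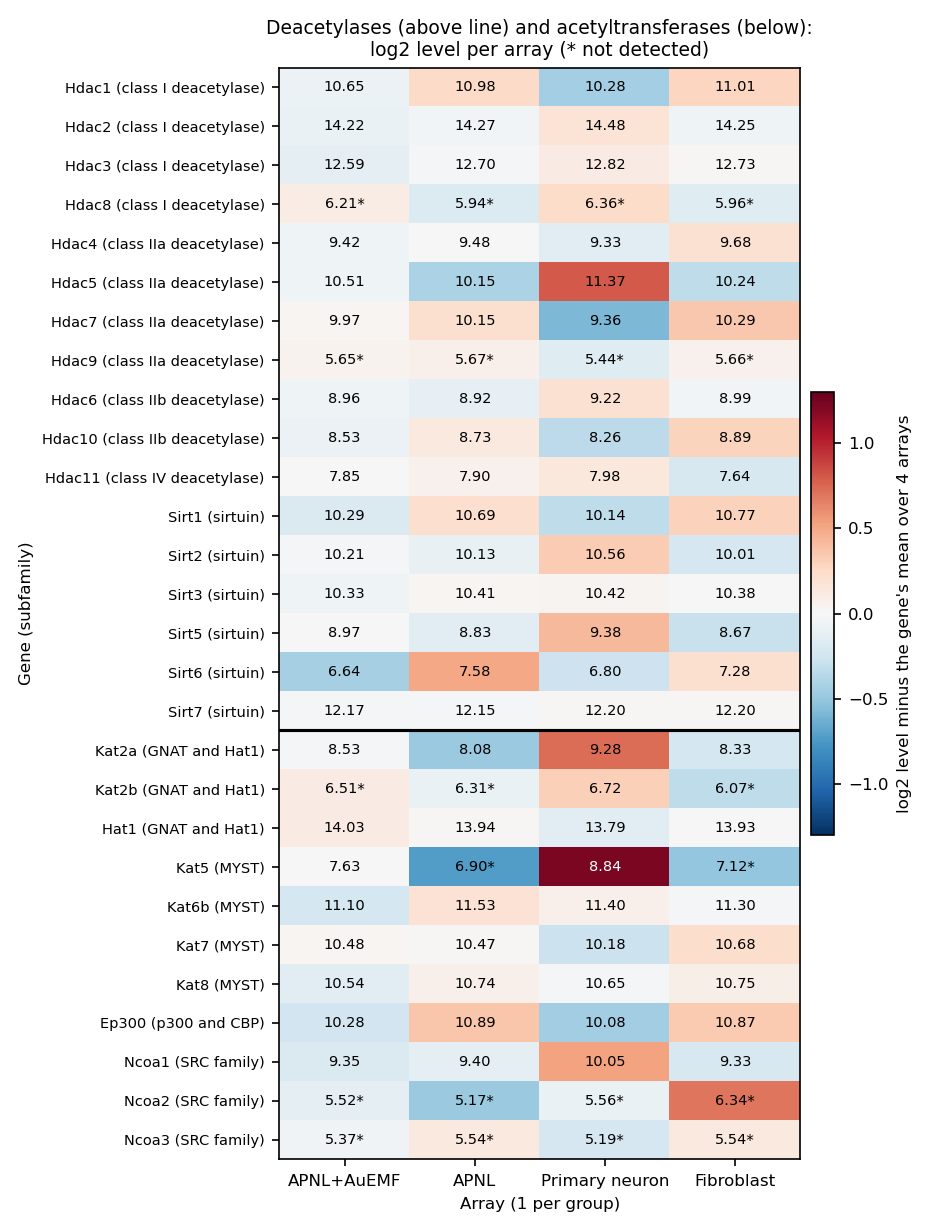
Log2 level of each of the 28 measured genes (rows, deacetylases above the line and acetyltransferases below it) on the 4 arrays (columns, 1 array per group), with an asterisk where the probe was not detected. Colour is the level minus the gene's own mean over the 4 arrays, and among detected values the strongest colours are those of Kat5, Hdac5 and Kat2a in primary neurons.

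Primary neurons were first compared with fibroblasts. The labels do not say whether these fibroblasts were the starting cells of the conversion, or how the primary neurons relate to its end point. The class IIa deacetylase gene Hdac5 and the acetyltransferase gene Kat5 were at least 2-fold higher in primary neurons, and no gene of either kind was 2-fold lower. Kat2a, Ncoa1 and Sirt5 were higher by 1.5-fold or more, and Hdac7, Ep300, Hdac1, Hdac10 and Sirt1 were lower by 1.5-fold or more. The 24 compared genes thus had 2 past 2-fold, or 8.3%, where 25.9% of all 8987 compared genes passed it. By direction, 2 of 24 were higher and 0 lower, against 11.0% and 14.9% of all genes. At 1.5-fold 10 of 24 passed, or 41.7%, against 46.3% of all genes, with 5 higher (18.5% of all genes) and 5 lower (27.9% of all genes).

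Among the erasers, Hdac5 encodes a deacetylase that binds Mef2 transcription factors and is known for its activity-dependent export from neuronal nuclei. It had a level of 10.51 in APNL+AuEMF, 10.15 in APNL, 11.37 in primary neurons and 10.24 in fibroblasts. The primary neuron array stood alone at the high end, 1.13 above fibroblasts and 1.21 above APNL. Scaling to a common median ended both 2-fold calls, with 0.38 against fibroblasts and -0.54 for APNL against primary neurons. Relative to the median of all genes these were 1.09 and -1.18. All 3 Hdac5 probes were higher in primary neurons than in fibroblasts, by 1.27, 0.79 and 1.13, the first of them detected in primary neurons only. Hdac7, a class IIa enzyme known from endothelial, lymphoid and muscle cells, had 9.97 in APNL+AuEMF, 10.15 in APNL, 9.36 in primary neurons and 10.29 in fibroblasts. It ran opposite to Hdac5, with a primary neuron minus fibroblast difference of -0.93. Hdac4, the third measured class IIa gene, differed by -0.34.

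Of the class I enzymes, Hdac1 and Hdac2 are catalytic subunits of the Sin3, NuRD and CoREST complexes, and Hdac3 is that of the NCoR complex. Hdac1 had 10.65 in APNL+AuEMF, 10.98 in APNL, 10.28 in primary neurons and 11.01 in fibroblasts, and was lower in primary neurons than in fibroblasts by 0.72 on the log2 scale (-0.72). Hdac2, its close paralog, had 14.22 in APNL+AuEMF, 14.27 in APNL, 14.48 in primary neurons and 14.25 in fibroblasts. Its difference of 0.23 between primary neurons and fibroblasts was -1.22 when the arrays were scaled to a common median, where the median of all genes was -0.71, so no direction is given for it. Hdac3, the subunit of the NCoR complex, differed by 0.09 and also turned sign with that scaling, at -1.10.

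Of the remaining zinc-dependent erasers, the class IIb gene Hdac10, which encodes a polyamine deacetylase, had 8.53 in APNL+AuEMF, 8.73 in APNL, 8.26 in primary neurons and 8.89 in fibroblasts. Fibroblasts were highest and primary neurons lowest, a difference of -0.63. It was -0.48 without background correction, past 1.5-fold in 5 of 8 alternatives, and -0.06 relative to the median of all genes with scaling. Of those 5, only scaling could alter its value, since detection rules and the mean of probes leave a detected single-probe gene unchanged. Later counts of alternatives share this limit where a gene was detected on both arrays or has a single probe. Hdac6, the cytoplasmic tubulin deacetylase, differed by 0.24 on the probe used and by 0.79 on its other probe, both detected on all 4 arrays. With scaling the probe used turned to -0.01, which was 0.70 relative to the median of all genes. Hdac11, the single class IV enzyme, had 7.85 in APNL+AuEMF, 7.90 in APNL, 7.98 in primary neurons and 7.64 in fibroblasts. The lowest value was that of fibroblasts, and the other 3 arrays lay within 0.13 of each other.

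Sirtuins are NAD-dependent, and their members sit in different compartments. Sirt1, a nuclear deacetylase of histones and transcription factors, had 10.29 in APNL+AuEMF, 10.69 in APNL, 10.14 in primary neurons and 10.77 in fibroblasts, which put primary neurons 0.63 below fibroblasts (-0.63). Sirt5, the mitochondrial enzyme that removes succinyl and malonyl groups, had 8.97 in APNL+AuEMF, 8.83 in APNL, 9.38 in primary neurons and 8.67 in fibroblasts. Its primary neuron minus fibroblast difference was 0.71, and its other probe gave 0.49. It was past 1.5-fold in 5 of 8 alternatives, with a lowest value of 0.46. Sirt2, a tubulin deacetylase abundant in brain, differed by 0.55, which became -0.06 with scaling to a common median (0.66 relative to the median of all genes). Sirt3 (mitochondrial) differed by 0.05 and Sirt7 (nucleolar) by less than 0.01 on the main scale. Sirt6, a nuclear sirtuin of DNA repair and glycolytic gene control, had 6.64 in APNL+AuEMF, 7.58 in APNL, 6.80 in primary neurons and 7.28 in fibroblasts, with APNL+AuEMF and primary neurons at the low end. It differed by -0.48 between primary neurons and fibroblasts, and by 0.39 relative to the median of all genes when the arrays were scaled to a common median.

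Among the writers, Kat5 encodes Tip60, the catalytic subunit of the NuA4 complex that acetylates histone H4 and the histone variant H2A.Z. Its level was 7.63 in APNL+AuEMF, 6.90 in APNL, 8.84 in primary neurons and 7.12 in fibroblasts. It was not detected in APNL or fibroblasts, with detection p-values of 0.0113 and 0.01 just past the threshold, so its difference from fibroblasts is a lower bound. The primary neuron level of Kat5 was at least 3.28-fold higher than the fibroblast one. Its other probe was detected on no array, and taking the mean of both probes brought the bound down to 0.05 on the log2 scale. Without background correction the bound was 1.16.

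Kat2a, which encodes Gcn5 of the SAGA and ATAC complexes and acetylates histone H3, had 8.53 in APNL+AuEMF, 8.08 in APNL, 9.28 in primary neurons and 8.33 in fibroblasts. Primary neurons were 0.95 above fibroblasts. Its paralog Kat2b (PCAF) was detected in primary neurons alone on the probe used, at 6.72, below the lowest detected value of the Fibroblast array (7.13), so no fold could be given. A second Kat2b probe was detected in APNL+AuEMF at 6.66 and in primary neurons at 6.70. Hat1, which acetylates newly made histone H4 before it is laid down on DNA, had levels between 13.79 and 14.03 on the 4 arrays.

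Ep300 encodes p300, the enhancer acetyltransferase. It had 10.28 in APNL+AuEMF, 10.89 in APNL, 10.08 in primary neurons and 10.87 in fibroblasts. The arrays formed 2 pairs, with APNL and fibroblasts high and APNL+AuEMF and primary neurons low, and primary neurons differed from fibroblasts by -0.80. Ncoa1, the steroid receptor coactivator SRC-1, had 9.35 in APNL+AuEMF, 9.40 in APNL, 10.05 in primary neurons and 9.33 in fibroblasts. Primary neurons were 0.72 above fibroblasts (0.29 with scaling, 1.00 relative to the median of all genes), and the other 3 arrays lay within 0.07 of each other. The other MYST family writers were closer to 0, with Kat7 (Hbo1) at -0.51, Kat6b at 0.10 (-0.77 with scaling to a common median) and Kat8 (Mof, which acetylates histone H4) at -0.10.

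**Figure D2:**
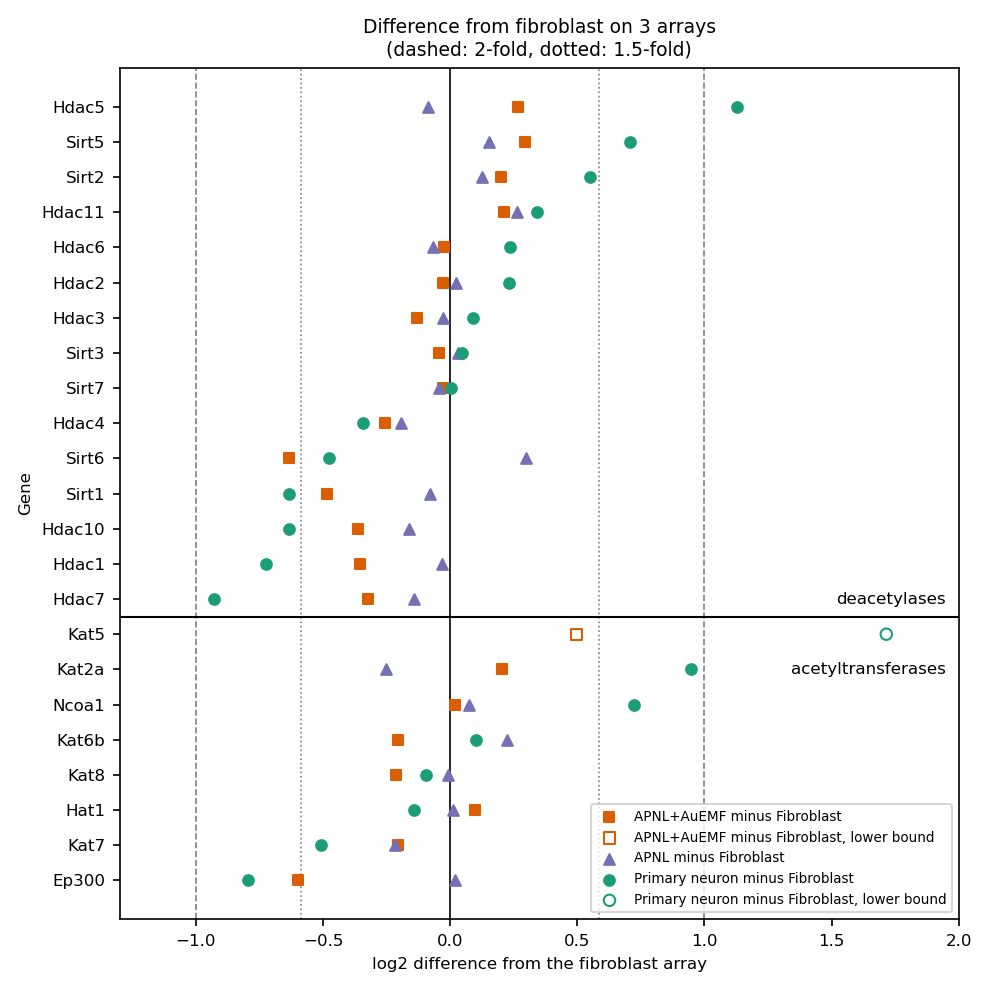
Log2 difference from the Fibroblast array (x axis) of 23 detected genes (y axis, deacetylases above the line) for APNL+AuEMF (squares), APNL (triangles) and Primary neuron (circles), 1 array each. Open symbols are lower bounds, and the primary neuron values reach from -0.93 for Hdac7 to the bound of 1.72 for Kat5, while APNL values stay between -0.25 and 0.30.

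Writers and erasers as groups were near the median of all genes. Between primary neurons and fibroblasts, the median difference of the 9 compared writers was 0.00 (the value of Kat2b, itself a bound) and that of the 15 compared erasers 0.05, against -0.07 over all genes. Of the writers 3 were higher and 1 lower at 1.5-fold, and of the erasers 2 were higher and 4 lower. The median absolute difference of the 24 genes was 0.49, against 0.53 over all genes. With scaling to a common median the writer median was -0.77 and the eraser median -0.72, and relative to the median of all genes (-0.71) the writer median was -0.05 and the eraser median within 0.01 of 0. No writer-to-eraser difference is drawn from these medians.

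Pairs of enzymes were chosen after their values were seen, so that the genes of a pair differ is no result in itself. Values for pairs among all genes were not computed. The pairs only describe how far genes on the same arrays stood apart. Relative to Hdac7, Hdac5 was higher in primary neurons than in fibroblasts by 2.06, and the 8 processing alternatives gave 1.78 to 2.06. Kat2a relative to Ep300 gave 1.75, with a range of 1.49 to 2.19. Sirt2 relative to Sirt1 gave 1.18, with a range of 1.09 to 1.22. Hdac2 relative to Hdac1 gave 0.96 but only 0.19 at the low end of its range.

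The stretch before the transcription start is shown for members past 1.5-fold in primary neurons that were detected on all 4 arrays and have a single start in the promoter table, taking the 2 highest (Hdac5 and Kat2a) and the 2 lowest (Ep300 and Sirt1), to let a reader compare genes that ran in opposite directions. Each run is the 250 bases upstream of the start, on the gene's own strand, from RefSeq on build GRCm38.p6, with capitals marking each match to a searched motif. The windows are chr11:102230173-102230422 (minus strand) for Hdac5, chr11:100712468-100712717 (minus strand) for Kat2a, chr15:81585964-81586213 (plus strand) for Ep300 and chr10:63339036-63339285 (minus strand) for Sirt1.
Hdac5: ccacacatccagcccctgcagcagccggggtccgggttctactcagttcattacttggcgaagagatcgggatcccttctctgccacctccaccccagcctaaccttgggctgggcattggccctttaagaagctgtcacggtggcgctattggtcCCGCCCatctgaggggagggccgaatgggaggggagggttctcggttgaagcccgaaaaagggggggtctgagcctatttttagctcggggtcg
Kat2a: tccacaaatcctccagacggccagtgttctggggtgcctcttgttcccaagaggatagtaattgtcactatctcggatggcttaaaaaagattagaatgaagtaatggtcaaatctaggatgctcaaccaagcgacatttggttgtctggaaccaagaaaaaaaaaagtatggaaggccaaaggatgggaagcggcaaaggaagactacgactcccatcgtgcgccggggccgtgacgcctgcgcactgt
Ep300: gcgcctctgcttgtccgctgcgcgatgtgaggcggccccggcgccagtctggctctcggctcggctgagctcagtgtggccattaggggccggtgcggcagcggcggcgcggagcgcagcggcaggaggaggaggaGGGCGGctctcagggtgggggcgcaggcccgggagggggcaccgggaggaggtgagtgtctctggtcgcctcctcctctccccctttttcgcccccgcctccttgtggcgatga
Sirt1: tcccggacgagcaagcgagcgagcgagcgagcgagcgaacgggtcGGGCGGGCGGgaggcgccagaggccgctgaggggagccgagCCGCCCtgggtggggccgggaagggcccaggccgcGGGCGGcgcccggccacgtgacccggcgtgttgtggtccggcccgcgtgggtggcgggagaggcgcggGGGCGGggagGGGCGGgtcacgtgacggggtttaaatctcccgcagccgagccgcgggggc

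The motifs searched on both strands were the GC box GGGCGG, the Pitx site TAATCC, the Nurr1 site AAAGGTCA and the cAMP response element TGACGTCA. The capitals above are GC boxes alone, 1 in Hdac5, 1 in Ep300 and 6 in Sirt1, of which the first 2 overlap. None of the 4 windows held any other motif, and Kat2a held none. Over the 36 windows found for 26 of the listed genes, a GC box was in 61.1%, against 32.7% of all 32851 windows of that length. The Pitx site was in 5.6% of member windows (Hdac9 and Kat7) against 6.3% of all windows, and the Nurr1 site in 2.8% (Kat7) against 1.3%. The cAMP response element was in no member window and in 1.5% of all. Members' windows were rich in CpG, with a median observed-to-expected CpG ratio of 0.753 against 0.373 for all windows. In the windows shown the ratio was 0.521 for Hdac5, 0.746 for Kat2a, 0.761 for Ep300 and 1.07 for Sirt1.

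APNL against fibroblasts concerns the cells taken to hold the factors without gold and field. No writer or eraser passed 1.5-fold in either direction. The 22 compared genes lay between -0.25 (Kat2a) and 0.30 (Sirt6), and 0 were past 2-fold, against 1.55% of all 8242 compared genes, or past 1.5-fold, against 3.69% of all genes (3.18% higher and 0.510% lower). The middle 80% of all genes ran from -0.24 to 0.23, so most genes on these 2 arrays differed as little. Hdac11 stood at 0.26 and Kat6b at 0.22 on the positive side, and Kat7 at -0.22 and Hdac4 at -0.19 on the negative side. The medians were 0.01 for writers and -0.03 for erasers, against -0.01 for all genes. For the 1696 genes with more than 1 detected probe, probes of the same gene disagreed by a median of 0.15 in this comparison, which is more than the members' own median absolute difference of 0.08.

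The comparison of APNL+AuEMF with fibroblasts adds gold and field, under the same lack of controls. Sirt6 and Ep300 were lower by 1.5-fold or more, at -0.64 and -0.60, and no member was higher by that much. Among 8 alternatives Sirt6 passed 1.5-fold in 3, with a smallest difference of -0.32, and Ep300 in 5, with -0.56. The 3 that kept Sirt6 past 1.5-fold were changes of the detection rule, which cannot alter a gene detected on both arrays. Every other alternative left Sirt6 short of 1.5-fold, at -0.53 to -0.32. Of the 5 that kept Ep300 past it, only scaling to a common median could alter its value (-1.03). Of 23 compared genes 0 passed 2-fold, against 6.90% of all 8675 compared genes (5.22% higher and 1.68% lower). At 1.5-fold 2 passed, or 8.7%, against 19.2% of all genes, with 0 higher (9.36% of all genes) and 2 lower (9.83% of all genes). Sirt1 followed at -0.48, Hdac10 at -0.36 (0.02 relative to the median of all genes with scaling), Hdac1 at -0.35 and Hdac7 at -0.32. On the positive side were Kat5, detected here and at least 1.41-fold higher than in fibroblasts, Sirt5 at 0.29, Hdac5 at 0.27 and Hdac11 at 0.21. The primary neuron comparison uses the same Fibroblast array, and its values for these genes are given above. Writers had a median of -0.09 and erasers of -0.04, against -0.07 for all genes.

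The step from APNL to APNL+AuEMF is the one the series title is about. Sirt6 and Ep300 were lower with AuEMF by 1.5-fold or more and Kat5 was higher, and all other compared members lay within 1.5-fold. Kat2b was not compared, since its probe used was detected on neither array. Its second probe had 6.66 in APNL+AuEMF, where it was detected, and 5.50 in APNL, where it was not. The lowest detected value of the APNL array was 6.93, so no fold could be given for that probe. Of 23 compared genes 0 passed 2-fold, against 3.90% of all 8700 compared genes (3.14% higher and 0.759% lower). At 1.5-fold 1 was higher, against 7.79% of all genes, and 2 were lower, against 6.37%. Ep300 differed by -0.62, from a raw intensity of 1475 in APNL+AuEMF against 1854 in APNL. Sirt6 differed by -0.93, from a raw intensity of 225.8 in APNL+AuEMF against 267.0 in APNL, both near the detection limit, and passed 1.5-fold in 5 of 8 alternatives, with -0.43 at the smallest. Ep300 passed it in 6 of 8, with -0.58 at the smallest. The other 2 probes of Sirt6 were detected on no array. Kat5 was at least 1.62-fold higher with AuEMF, from a raw intensity of 339.9 in APNL+AuEMF against 211.3 in APNL. On the log2 scale its bound of 0.70 became 0.39 without background correction and 0 with the mean of probes, and it passed 1.5-fold in 3 of 7 alternatives.

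Smaller differences with AuEMF were those of Kat2a at 0.46 and Hdac5 at 0.36, and of Kat6b at -0.43, Sirt1 at -0.40 and Hdac1 at -0.32. The middle 80% of all genes ran from -0.49 to 0.48, and these values lay inside it. On the same arrays, Kat2a relative to Ep300 was higher with AuEMF by 1.07, with a range of 0.91 to 1.42 over the alternatives. This pair was chosen after its values were seen. The medians were -0.02 for writers and -0.06 for erasers, against -0.05 for all genes. In this comparison 8 of 11 compared macrophage markers were at least 2-fold higher and 6 of 13 neuron markers likewise, and the cell cycle list had a median of -0.26. All 11 compared skeletal muscle markers were lower with AuEMF, 3 of them by 2-fold or more, with a median of -0.93 and a summed linear level of 11699 in APNL+AuEMF against 21581 in APNL. Whether these bear on the values of Ep300, Sirt6 or Kat5 was not tested.

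**Figure D3:**
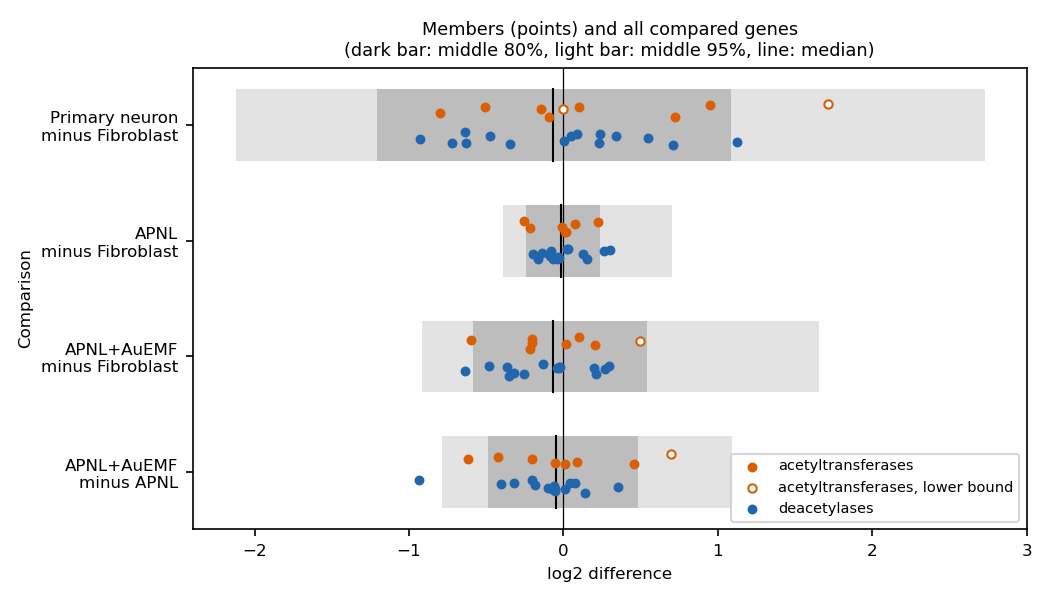
Log2 differences (x axis) of acetyltransferases and deacetylases (points, open where a lower bound) in 4 comparisons (y axis), over bars for all compared genes (dark the middle 80%, light the middle 95%, line at the median). In APNL minus Fibroblast the points lie between -0.25 and 0.30, and in APNL+AuEMF minus APNL Sirt6 at -0.93 lies outside the light bar.

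APNL and APNL+AuEMF were also each set against the same Primary neuron array that enters the fibroblast comparison above. In APNL against primary neurons 3 of 24 compared genes were at least 2-fold lower, against 10.7% of all 9010 compared genes, and 0 were higher, against 12.7%. These were Hdac5 at -1.21, Kat2a at -1.20 and Kat5, at least 3.77-fold lower. Hdac6 differed by -0.30 on the probe used, but by -1.24 on its other probe, detected on all 4 arrays. The Kat5 bound of -1.91 on the log2 scale became -1.27 without background correction and -0.24 with the mean of probes, and Kat2a was -0.93 at the smallest. Ncoa1 followed at -0.65 (-0.25 at the smallest, past 1.5-fold in 5 of 8 alternatives), while Ep300 at 0.82, Hdac7 at 0.79, Sirt6 at 0.78 and Hdac1 at 0.69 were higher in APNL by 1.5-fold or more. Of these Sirt6 passed in 4 of 8 alternatives, with 0.19 under the mean of probes, and the other 3 in all 8. Counting both directions, 8 of 24 members passed 1.5-fold, or 33.3%, against 44.6% of all genes. In APNL+AuEMF against primary neurons Kat5 was lower by 1.22 on the log2 scale (-1.22), the 1 gene of 24 past 2-fold, against 6.74% of all 9076 genes lower and 7.42% higher. Hdac5 stood at -0.86, Kat2a at -0.74, Ncoa1 at -0.71 and Hdac7 at 0.61. Kat5 was -0.78 with the mean of probes, and Hdac7 passed 1.5-fold in 5 of 8 alternatives, with 0.54 at the smallest. Ep300 at 0.20 and Sirt1 at 0.15 were within 1.5-fold of primary neurons.

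Of the 9 members with more than 1 probe, the probes detected on both arrays had the same sign between primary neurons and fibroblasts in Hdac5, Hdac6 and Sirt5. Their differences were unequal in size, most of all for Hdac6. The remaining members had 1 or no probe detected on both arrays, so their value rests on a single probe.

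**Figure D4:**
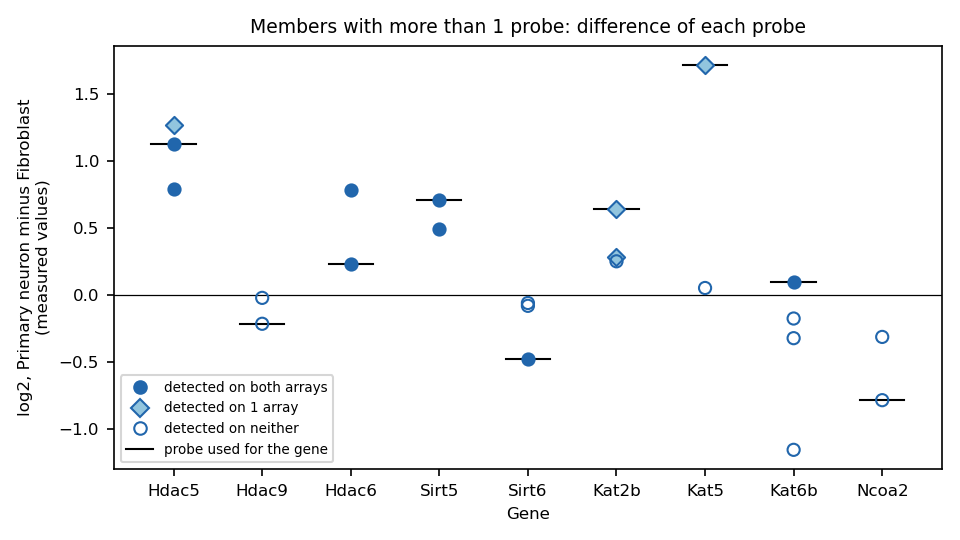
Measured log2 difference between Primary neuron and Fibroblast (y axis) for every probe of the 9 members with more than 1 probe (x axis), with fill for detection and a line at the probe used. The detected probes of Hdac5, Hdac6 and Sirt5 are all above 0, and the Kat5 value rests on 1 probe.

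Related genes of the pathway come from lists chosen with earlier results of these data known. Between primary neurons and fibroblasts their counts at 2-fold stand against 11.0% of all genes higher and 14.9% lower, and with AuEMF against APNL against 3.14% higher and 0.759% lower. Acetyl-lysine readers had 0 of 14 compared genes higher and 2 lower at 2-fold in primary neurons than in fibroblasts, with a median of -0.22. Brd8, a bromodomain subunit of the NuA4 complex, had 8.85 in APNL+AuEMF, 9.52 in APNL, 8.25 in primary neurons and 9.70 in fibroblasts, and differed by -1.45. Brwd1, a bromodomain and WD-repeat protein, differed by -1.26 and Atad2, a bromodomain ATPase of dividing cells, by -0.93. With AuEMF against APNL none of the 14 passed 2-fold, 13 of 14 values were below 0, against 55.7% of all genes, and the median was -0.30, against -0.05. Brwd1 stood at -0.78, Brd8 at -0.67 and Trim33 at -0.56. Relative to the median of all genes under scaling, this list stayed lower, at -0.19.

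Subunits of acetyltransferase complexes had 2 of 32 compared genes higher and 2 lower at 2-fold in primary neurons, with a median of 0.00. They included members of the SAGA complex that holds Kat2a, and these ran in opposite directions. Usp22, the SAGA ubiquitin protease, had 12.64 in APNL+AuEMF, 12.25 in APNL, 13.87 in primary neurons and 12.10 in fibroblasts, a difference of 1.77. Supt20, a structural SAGA subunit, had 7.82 in APNL+AuEMF, 8.56 in APNL, 6.85 in primary neurons and 8.80 in fibroblasts, a difference of -1.95. Jade1, a scaffold of the Kat7 complex, differed by -1.36. With AuEMF against APNL none of 30 passed 2-fold, with Taf6l at -0.76, Supt20 at -0.74 and Tada2a at -0.49.

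Subunits of deacetylase corepressor complexes had 4 of 29 compared genes higher and 3 lower at 2-fold in primary neurons, with a median of 0.00. Mbd3, a NuRD subunit, had 8.45 in APNL+AuEMF, 7.63 in APNL, 9.93 in primary neurons and 8.21 in fibroblasts, a difference of 1.72. Sap30 of the Sin3 complex differed by 1.54, and Rbbp7, a histone-binding subunit that both complexes share, by 1.34. Rest was below detection on all 4 arrays. With AuEMF against APNL none of 27 passed 2-fold, and Mbd3 stood at 0.82, Rbbp7 at 0.73 and Ing2 at -0.71.

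Enzymes that supply acetyl-CoA and NAD had 1 of 12 compared genes higher and 2 lower at 2-fold in primary neurons, with a median of -0.24. Acss1, the mitochondrial acetyl-CoA synthetase, had 9.88 in APNL+AuEMF, 9.38 in APNL, 11.03 in primary neurons and 8.24 in fibroblasts. It was highest in primary neurons, 2.79 above fibroblasts, and was the only gene on this list past 2-fold in APNL against fibroblasts, at 1.14. Acss2, the nuclear and cytosolic acetyl-CoA synthetase, went the other way, with 10.72 in APNL+AuEMF, 11.03 in APNL, 9.81 in primary neurons and 11.01 in fibroblasts, a difference of -1.20. Nnmt, which methylates nicotinamide and so draws on the NAD salvage pathway, differed by -1.31. With AuEMF against APNL none of 12 passed 1.5-fold, with Acss1 at 0.50, Acly at -0.47 and Naprt at 0.37.

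Histones and their chaperones had 3 of 15 compared genes higher and 0 lower at 2-fold in primary neurons, with a median of 0.27, which was 0.05 relative to all genes under scaling. Nap1l3, a brain-rich nucleosome assembly protein gene, differed by 1.16 and Nap1l1 by -0.90. H3f3a, which encodes the replacement histone H3.3, differed by 1.14, though near-identical copies elsewhere in the genome make a probe for it uncertain. With AuEMF against APNL none of 15 passed 2-fold, with Asf1a at -0.69, Nap1l5 at 0.68 and Nap1l3 at -0.25.

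**Figure D5:**
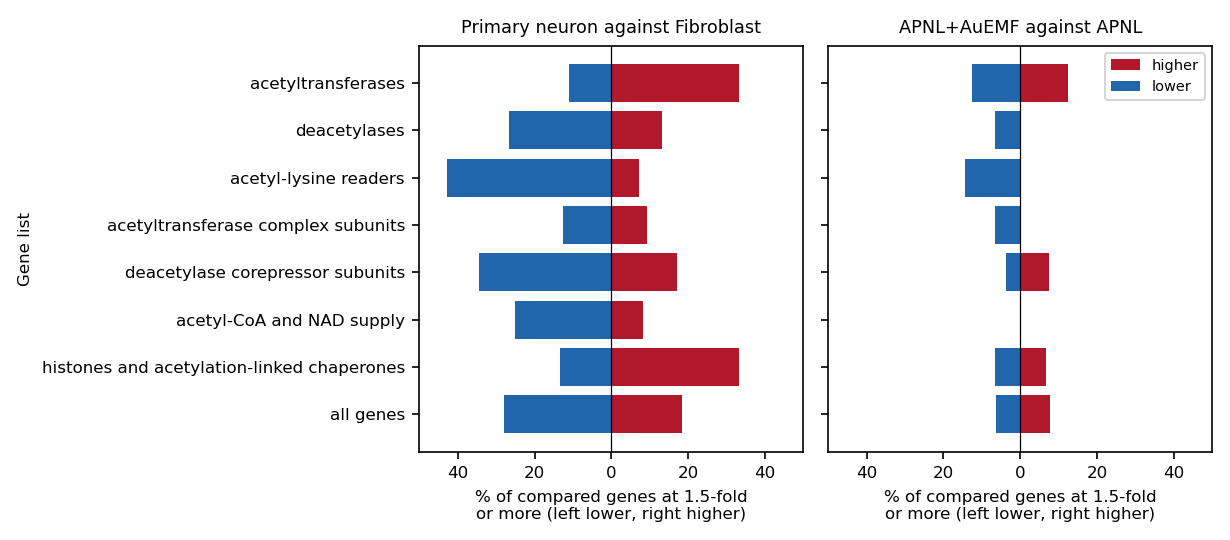
Share of compared genes at 1.5-fold or more (x axis, percent, lower to the left and higher to the right) for members, related lists and all genes (y axis) between Primary neuron and Fibroblast and between APNL+AuEMF and APNL, 1 array per group. Over all genes 18.5% were higher and 27.9% lower in the first comparison, and 7.79% and 6.37% in the second.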

How the data were processed

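Biotin-labelled cRNA made from 0.55 ug of total RNA per sample was hybridised to 4 arrays. GenomeStudio 2011.1 is the software in the submitters' processing notes. The deposited table gives each probe's intensity on a linear scale, not normalized between arrays, and a detection p-value, which per the file headers belongs to the same array. The deposited log2 values matched log2 intensities that had been quantile-normalized without background correction to within 5e-07.

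Levels were computed with neqc (limma 3.58.1, R 4.3.3): normexp background correction with control parameters estimated through the detection p-values, offset 16, quantile normalization and log2. A gene took its probe with the highest mean. Of the probes, 23978 carry 1 gene symbol, 0 several and 1719 none. Each pair of arrays was compared over genes detected (p under 0.01) on either. For a gene detected on a single array, the other array's detection floor (its lowest detected value), or the gene's own value there if higher, gave a lower bound. Calls were made at 2-fold, with shares also at 1.5-fold. The calculation was tested on simulated data, with changes of 1.5 log2 set in 200 bright probes detected on all 4 arrays. Changes in weak probes and smaller changes were not simulated, so the test does not cover values such as those of Sirt6 and Kat5 with AuEMF.

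The members and lists were chosen with earlier results of these data known. Levels on all 4 arrays are given for members past 2-fold in any comparison, for the largest difference in each subfamily and, chosen after their values were seen, for Hdac2, Hdac7, Sirt1 and Sirt5. Related genes named are the 3 largest differences per list between primary neurons and fibroblasts among genes detected on both, and 3 between APNL+AuEMF and APNL. Alternatives changed the background step (none, or normexp with offset 50), the normalization (a common median, or the authors' log2 values), the detection rule (p under 0.05, both arrays, or no filter), the summary over probes (their mean) and the threshold (1.5-fold, 3-fold). The pairs of genes and the values relative to the median of all genes were added after seeing the data. Calculations outside R used Python 3.11.15, pandas 2.3.3 and numpy 2.4.6.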

Additional observations from a re-analysis of the deposited data

How the results depend on the processing

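No paired analysis was possible because each group has 1 array, and leaving out an array leaves no comparison. Precision is limited by signal over background, and Sirt6, Kat5 and Kat2b lie near the detection limit. Of the counts and medians recomputed, 160 stayed close to the main value and 24 moved. Among values of members past 1.5-fold and of the gene pairs 336 stayed close and 13 moved. Many of the 336 were fixed in advance and are no measure of stability. Detection rules cannot change a gene detected on both arrays, nor the mean of probes a gene with a single probe. The authors' log2 values repeat those without background correction. Scaling turned the sign of Hdac2 relative to Hdac1 in 3 comparisons, with -0.01 for APNL and -0.09 for APNL+AuEMF against fibroblasts and -0.07 for APNL+AuEMF against APNL, and that of 7 of 24 members between primary neurons and fibroblasts.

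Scaling to a common median shifted all genes most, with a median of -0.71 between primary neurons and fibroblasts where the main value was -0.07. Under it 1 member of 24 was higher and 9 lower there (7.9% and 37.7% of all genes), the writer median was -0.77 and the eraser median -0.72. Relative to the median of all genes, 6 members were higher and 0 lower at 2-fold. The share of all genes on that relative scale was not computed, so no direction is read from this count. It also gave 1 of 23 members lower in APNL+AuEMF than in fibroblasts, against 9.6% of all genes. In APNL 6 of 24 were higher than in primary neurons, against 32.8% of all genes. Among all genes past 2-fold, the share that was higher was 42.6% on the main scale and 17.4% scaled between primary neurons and fibroblasts, 75.6% and 32.9% between APNL+AuEMF and fibroblasts, 80.5% and 43.9% between APNL+AuEMF and APNL, 54.3% and 81.5% between APNL and primary neurons, and 52.4% and 68.9% between APNL+AuEMF and primary neurons. The cause was not tested.

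Between primary neurons and fibroblasts, 1 member was higher with detection on both arrays, with the mean of probes and at 3-fold. Of all genes 8.7%, 9.7% and 6.2% were higher there. At 1.5-fold 5 members were higher and 5 lower, against 18.5% and 27.9% of all genes. With no filter 1 member was lower in APNL than in fibroblasts, against 0.2% of all genes. This was Ncoa2, which was detected on no array. At 1.5-fold 2 were lower in APNL+AuEMF than in fibroblasts (9.83% of all genes). At the same fold 1 was higher and 2 lower in APNL+AuEMF than in APNL (7.79% and 6.37% of all genes). Against primary neurons, 4 were higher in APNL at 1.5-fold (26.2% of all genes) and 1 lower at 3-fold (5.2% of all genes). In APNL+AuEMF 1 was higher (17.4% of all genes) and 4 lower (14.2%) than in primary neurons at 1.5-fold, and 0 were lower at 3-fold (2.4%). The 2-fold count of lower members was also 0 with no background correction (4.8% of all genes) and with normexp and an offset of 50 (5.3%). It was 0 as well with the authors' log2 values (4.8%) and with the mean of probes (5.8%).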
